A study of Mus musculus with 36 samples.

Results

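The genes described here are Nrxn3, Cntnap2, Csmd1, Csmd3, Lrp1b, Dmd, Macrod2 and Ctnna3, 8 of the 40205 features counted, chosen by name because each covers more than 500 kb of the genome. All 8 were found by symbol in every library. They were measured by RNA sequencing of 18 extracellular vesicle (EV) libraries and the 18 libraries of the neural stem cells (NSCs) that released those EVs. The NSCs were neurosphere cultures from the dorsal telencephalon of C57BL/6J mouse fetuses at gestational day 12.5 (the study's methods add the Ai14 reporter background), with a female and a male line per pregnancy for 3 pregnancies (numbered as sets 3, 4 and 5), each pooling the tissue of the fetuses of that sex. Each of these 6 cultures was kept for 5 days without ethanol (0 mg/dL, the control) or with 120 or 320 mg/dL ethanol, so every combination of location, sex and dose holds 3 libraries, and the 3 doses of a culture are not separate animals. EVs were collected from the culture medium by 0.2 µm filtration and ultracentrifugation, and no other fetal cell type was present as a separate sample.

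Very long genes of this kind are known from brain. A gene of this size is almost all intron, so a polymerase needs many hours to cross it, and unspliced RNA makes up a large share of what it produces in a nucleus. Nrxn3 encodes a presynaptic neurexin that binds neuroligins and LRRTM proteins across the synaptic cleft, and Cntnap2 a neurexin superfamily protein (Caspr2) that holds potassium channels beside the node of Ranvier. Csmd1 and Csmd3 encode large transmembrane proteins built of CUB and sushi domains, of which CSMD1 is known as an inhibitor of complement. Lrp1b encodes an endocytic receptor of the LDL receptor family, Dmd the dystrophin that links actin to the dystroglycan complex, and Ctnna3 an alpha-catenin (αT-catenin) of adherens junctions best known from heart. Macrod2 encodes an enzyme that removes ADP-ribose from proteins. On these descriptions the label of synaptic and adhesion genes is a loose one, closest for Nrxn3, Cntnap2 and Ctnna3 and not apt for Macrod2.

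On GRCm39 the 8 genes cover 1.21 to 2.26 Mb each, 14.6 Mb in all, and lie above the 99.8th percentile of span among 19231 protein-coding genes placed by symbol, whose median span was 22.0 kb. Their merged exons amount to 10.3 to 24.0 kb, which is 0.458% to 1.87% of the span. Cntnap2 runs from 45036291 to 47281147 on chromosome 6, with 28 merged exons and 1 intron of 594 kb, the longest of the 8 genes. Dmd, the only X-linked member, lies at 81992474 to 84249747 and has 85 merged exons. Lrp1b occupies 40485258 to 42543636 of chromosome 2 on the minus strand with 96 merged exons, and Macrod2 140237229 to 142234886 of the same chromosome on the plus strand with 31. Nrxn3 is at 88689646 to 90301709 of chromosome 12, Ctnna3 at 63265877 to 64846348 of chromosome 10, Csmd1 at 15942537 to 17585602 of chromosome 8 and Csmd3 at 47444033 to 48655592 of chromosome 15. These positions come from the GENCODE annotation of the build to which the reads were aligned, while the counted features carry RefSeq-style names. Gene ends may thus differ from those used for counting, and by how much was not checked.

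The first sequence shown is the hairpin of Mir6336, a microRNA gene inside the span of Lrp1b on the same strand, as an example of a gene listed inside a member and at 0 in every library. RefSeq (GRCm38.p6) places it at chr2:42447439-42447568, minus strand, and on GRCm39 it is at 42337451 to 42337580 of chromosome 2.
Mir6336 hairpin: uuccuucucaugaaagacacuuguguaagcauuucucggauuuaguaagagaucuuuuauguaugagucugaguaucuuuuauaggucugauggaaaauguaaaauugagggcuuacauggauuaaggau
A start of Ctnna3 and a start of Dmd are shown because these genes stood far apart in cells, from 250 bases before to 50 bases after a RefSeq start (GRCm38.p6, plus strand), with CG dinucleotides in capitals. The Ctnna3 window is at chr10:63429848-63430147 and the Dmd window at chrX:82948620-82948919.
Ctnna3 start: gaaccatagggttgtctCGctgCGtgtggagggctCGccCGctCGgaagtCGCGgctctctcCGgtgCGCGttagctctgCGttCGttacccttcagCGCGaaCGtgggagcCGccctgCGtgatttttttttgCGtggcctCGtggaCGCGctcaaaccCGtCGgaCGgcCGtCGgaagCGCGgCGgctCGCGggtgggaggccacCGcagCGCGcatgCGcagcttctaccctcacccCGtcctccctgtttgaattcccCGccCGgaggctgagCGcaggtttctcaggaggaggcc
Dmd start: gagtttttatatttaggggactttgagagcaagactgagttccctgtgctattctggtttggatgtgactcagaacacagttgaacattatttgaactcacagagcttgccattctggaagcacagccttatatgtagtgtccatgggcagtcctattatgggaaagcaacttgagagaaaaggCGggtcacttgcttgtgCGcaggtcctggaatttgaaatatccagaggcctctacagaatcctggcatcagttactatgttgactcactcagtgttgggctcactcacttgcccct
The Ctnna3 window held 39 CG dinucleotides, more than 95.55% of the 32851 windows of that size, and the Dmd window 2, more than 14.1% of them, against a median of 7. RefSeq windows were found for 5 of the 8 genes, 12 windows in all, with 2 to 39 CG dinucleotides. The other Dmd window held 14, and the other Ctnna3 windows 7 and 2.

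Annotation inside the 8 genes bears on the region over which their counts were collected, without settling it. The spans of the 8 genes hold 17 other genes of the count files, and all 17 had 0 counts in all 36 libraries. Whether these 17 overlap exons of the 8 genes was not checked. They included Mir6336, the microRNA gene Mir3106 inside Csmd1, and Flrt3, a protein-coding gene for a neuronal adhesion protein, which is on the strand opposite to Macrod2. Lrrtm3, which encodes a synaptic ligand of neurexins, lies inside Ctnna3 on the opposite strand and was also at 0. Over all genes, 150 of 260 protein-coding genes inside an intron of 1 other gene on the opposite strand (57.7%) and 62 of 109 on the same strand (56.9%) were at 0 in every library, against 510 of 10579 (4.82%) of those that overlap no other gene. For microRNA genes zeros were common everywhere, at 464 of 479 (96.9%) inside an intron on the same strand and 147 of 231 (63.6%) of those that overlap no other gene, so a zero for Mir6336 or Mir3106 was not unusual for a microRNA gene. Counting over whole gene spans without regard to strand, with reads in overlapping genes left out, would give such zeros, though it would put every fully covered gene at 0, and 498 of 993 protein-coding genes with no free base (50.2%) were at 0 while the rest had counts. The feature type and strand setting of the counting are not given in the sources used here, so this reading is not settled. On it the counts of the 8 genes hold intronic as well as exonic reads, in shares that the files do not separate, and a nested gene at 0 is not evidence that it was silent. Levels are given below per Mb of gene span free of other genes (89.4% to 100.0% of each span), a scale chosen after these zeros were seen, with exon-based values beside them.

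Library totals were 26.6 to 55.3 M counts in cells (M stands for 1000000) and 0.959 to 5.51 M in EVs, with 6 EV libraries under 2 M. The 8 genes together took 0.0613% of all cell counts and 0.0407% of all EV counts. Of the NSC markers, all except Sox2 were detected, with summed levels of 2844 to 4524 counts per 1000000 (CPM) in cells and 664.6 to 1325 CPM in EVs. Sox2 was at 0 in every library but has no base free of another counted gene, so its 0 is not evidence that it was silent. Summed neuron markers were at 544 to 1178 CPM in cells and 228.1 to 403.2 CPM in EVs, and microglia markers at 0.340 to 0.667 CPM in cells and 0 to 10.7 CPM in EVs. Most of the neuron sum was Map2, with means of 690.5 CPM in cells and 207.6 in EVs. Tubb3, Dcx, Stmn2 and Neurod1 averaged 5.33, 6.90, 0.281 and 0.0868 CPM in cells. Astrocyte markers summed to 55.9 to 473.3 CPM in cells and 38.4 to 241.2 in EVs. Oligodendrocyte lineage markers summed to 21.5 to 77.8 and 32.8 to 62.7 CPM. The part of other cell types in the levels of the 8 genes was not tested, and fewer cells of a type and less RNA per cell cannot be told apart in such libraries.

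In cells the 8 genes differed widely in level. Cntnap2 was lowest, with 131 to 460 counts per library (median 243.5) and 2.62 CPM per Mb of span on average, followed by Ctnna3 with 145 to 559 counts (median 262) and 4.77 CPM per Mb. Csmd3 had 184 to 740 counts (median 337) and 6.90 CPM per Mb. Ranges of these 3 genes overlapped from neighbour to neighbour. Csmd1 and Macrod2 were intermediate at 25.02 and 26.6 CPM per Mb, with 403 to 3421 counts (median 1496) for Csmd1 and 1261 to 3625 (median 2202) for Macrod2. Nrxn3, Dmd and Lrp1b were highest at 68.8, 70.7 and 74.9 CPM per Mb. Their counts were 977 to 9813 (median 4811) for Nrxn3, 2542 to 13722 (median 6806) for Dmd and 1630 to 13486 (median 6150) for Lrp1b, and these 3 genes overlapped with one another. The mean level per Mb of the highest gene was 28.6 times that of the lowest, and per kb of merged exon 23.1 times (0.369 CPM per kb for Csmd3, 8.54 for Nrxn3).

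In EVs the same genes were close together. Ctnna3 had 20 to 225 counts per library (median 78) and Cntnap2 26 to 327 (median 111.5), which gave mean levels of 26.8 and 23.2 CPM per Mb. Csmd1 (20 to 254 counts, median 117.5) was at 26.9 CPM per Mb, Csmd3 (27 to 249 counts, median 79.5) at 31.9 and Dmd (43 to 516 counts, median 212) at 34.1. The ranges of these 5 genes overlapped throughout. Nrxn3 (26 to 480 counts, median 185) reached 42.7 CPM per Mb, Lrp1b (53 to 587 counts, median 271.5) 57.2 and Macrod2 (119 to 665 counts, median 262.5) 66.6. The highest mean was 2.87 times the lowest per Mb of span, and 4.62 times per kb of merged exon (1.71 CPM per kb for Csmd3, 7.89 for Macrod2). Counts of 20 to 50 in the shallowest EV libraries carry a counting error that no scale removes.

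**Figure D1:**
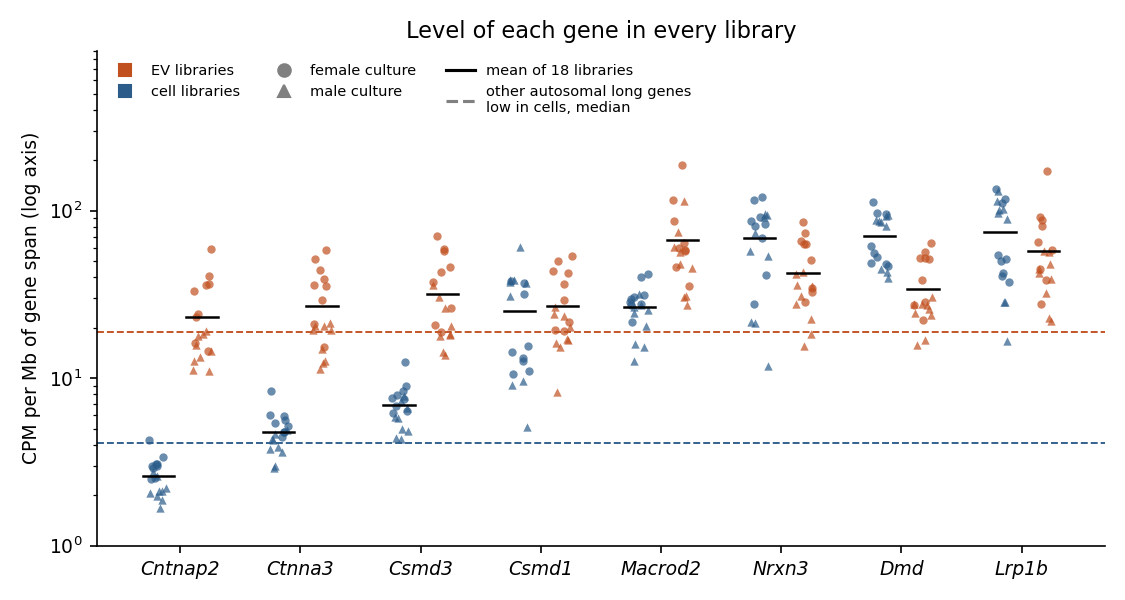
Level of each of the 8 genes in every library, in CPM per Mb of gene span free of other genes on a log axis, ordered by the mean in cells. Orange points are EV libraries and blue points cell libraries (18 each, circles female, triangles male), black lines are means over 18 libraries, and dashed lines mark the median of the other autosomal genes over 500 kb that were low in cells. Cell means spread from 2.62 to 74.9 CPM per Mb, EV means from 23.2 to 66.6.

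Comparing EVs with their cells-of-origin, 4 of the 8 genes were higher in EVs and 2 were lower at an adjusted p under 0.05 (edgeR quasi-likelihood test, adjusted over 17758 genes). That fit takes the 3 doses of a culture as independent libraries, so its p-values are too small. Of all genes tested 81.8% passed, 38.1% as higher and 43.7% as lower, so 6 of 8 is near the share of all genes. The 4 that rose included the 3 genes lowest in cells, and both that fell were among the 3 highest. Cntnap2 was at 24.8 to 133 CPM in EVs (median 40.7) and 3.74 to 9.57 CPM in cells (median 5.76), with no overlap, and the log2 fold change was 3.07 ± 0.15 (SE, n = 18 and 18, adjusted p = 2.81e-20 by edgeR). Ctnna3 stood at 15.9 to 82.0 CPM in EVs (median 29.4) and 4.14 to 11.9 CPM in cells (median 6.60), again without overlap, a change of 2.40 ± 0.15 (edgeR adjusted p = 2.01e-17). Csmd3 changed by 2.14 ± 0.16 (edgeR adjusted p = 3.33e-15), from 5.25 to 15.2 CPM in cells (median 8.14) to 16.6 to 85.5 CPM in EVs (median 31.6), and its ranges did not overlap either. In all 18 pairs of an EV library and the cell library of the same culture and dose, these 3 genes were higher in the EVs.

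Macrod2 was also higher in the EVs of all 18 pairs, though by almost nothing in the pair nearest to equality (a log2 ratio of 0.0016). It ranged from 52.6 to 358 CPM in EVs (median 111) and from 24.2 to 80.8 CPM in cells (median 52.4), a log2 fold change of 1.31 ± 0.19 with edgeR adjusted p = 5.9e-08. Dmd was lower in EVs in all 18 pairs, at 35.6 to 144 CPM (median 62.6) against 89.2 to 254 CPM in cells (median 161), and fell by 1.11 ± 0.18 on the log2 scale (edgeR adjusted p = 6.21e-07). Nrxn3 was lower in the EVs of 14 pairs and fell by 0.73 ± 0.23 (edgeR adjusted p = 0.00389), with EVs at 24.4 to 134 CPM (median 56.3) and cells at 18.7 to 191 CPM (median 122). Csmd1 (log2 fold change 0.06 ± 0.28, edgeR adjusted p = 0.855) and Lrp1b (-0.47 ± 0.26, edgeR adjusted p = 0.0958) did not pass.

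How far the genes in the middle were called depended on the settings. The median log2 fold change of all genes was -0.14 with TMM scaling, 0.22 with median-of-ratios factors and -0.65 with library totals, and the higher calls made up 46.6%, 56.4% and 35.4% of all calls. Relative to that median, Nrxn3 lay at -0.60, -0.55 and -0.58 under the 3 scalings, Dmd at -0.97, -0.92 and -0.97, and Macrod2 at 1.45, 1.54 and 1.46. Nrxn3 was not called by DESeq2 (adjusted p = 0.185), with median-of-ratios factors (adjusted p = 0.196 by edgeR), without pregnancy set 4 (adjusted p = 0.0683 by edgeR) or in control libraries alone (adjusted p = 0.054 by edgeR). Lrp1b passed in 4 of 12 fits, with library totals (-1.002, edgeR adjusted p = 0.000337), with no filter (-0.82, edgeR adjusted p = 0.00294), with the EV and cell pair as a block (-0.63, edgeR adjusted p = 0.00438) and without the 6 shallow EV libraries and their cells (-0.86, edgeR adjusted p = 0.00583). With all libraries thinned to the smallest total neither Dmd (-0.30, adjusted p = 0.17 by edgeR) nor Nrxn3 passed, and Csmd1 did (0.91, adjusted p = 0.00831 by edgeR). Cntnap2, Ctnna3, Csmd3 and Macrod2 were higher in EVs at an adjusted p under 0.05 in all 12 fits run. Without a filter the median of all genes was itself higher, at 1.73 by DESeq2 and 0.46 by edgeR. Macrod2 lay only 0.034 above it by DESeq2 and 0.50 by edgeR, and Cntnap2, Ctnna3 and Csmd3 lay 1.75, 1.09 and 0.83 above it by DESeq2.

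Other genes were set beside the 8 by span and by level. Of the other 218 protein-coding genes over 500 kb, 215 were tested and had a median log2 fold change of 0.68, with 113 higher and 72 lower, against -0.38 for 13872 tested protein-coding genes of 500 kb or less. The median rose with each class of span, from -0.68 for genes up to 10 kb to -0.46, -0.17, -0.00 and 0.26 for 10 to 50, 50 to 100, 100 to 250 and 250 to 500 kb. Merged exon length showed no such order, with medians of -0.34, -0.24, -0.35, -0.44 and -0.43 for up to 2, 2 to 4, 4 to 8, 8 to 16 and over 16 kb. Classes of the longest transcript at the same limits did rise, with medians of -0.47, -0.40, -0.39, -0.14 and 0.80, the last over 48 genes. The span classes also differed in cell level. Its median fell from 2199 CPM per Mb in the shortest to 33.5 in the longest. At matched cell level the shorter genes that were tested had similar values. In genes of 20 to 500 kb the median log2 fold change was 2.94, 2.31, 1.64 and 0.77 for cell levels under 4, 4 to 8, 8 to 16 and 16 to 32 CPM per Mb, against 2.79, 2.21, 1.61 and 0.61 in genes over 500 kb. Of the shorter genes, 388 of 1010 under 4 CPM per Mb and 484 of 604 at 4 to 8 were tested. All 29 and all 37 long genes of these classes were. A gene low in cells passes the filter more readily with a high EV level, so these medians are in part set by the filter. Over all genes under 4 CPM per Mb in cells, the median EV level was 15.4 CPM per Mb in the shorter and 20.9 in the long genes. The difference between these size groups was not tested.

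Among long genes the median EV level per Mb rose with the cell level from the lowest class on. The range was narrower than in cells, where the class medians went from 2.81 to 345.5 CPM per Mb. In 8 classes of rising cell level, each limit being 2 times the one before and the lowest class under 4 CPM per Mb, the median EV level of genes over 500 kb was 20.9, 26.3, 33.5, 34.1, 45.5, 57.6, 88.0 and 173.8 CPM per Mb. Among the other genes over 500 kb, 63 had less than 8 CPM per Mb in cells, with 80% or more of their span free (median 4.21 CPM per Mb in cells, range 1.88 to 7.96), and these had a median of 23.5 CPM per Mb in EVs, 80% of them between 18.1 and 31.4. They were picked by their cell level, so their ratio of EV to cell is a description. For the other long genes under 16 CPM per Mb in cells (n = 87 genes, which are not independent replicates), Spearman's rho of the summed EV count was 0.742 with the free span and 0.0206 with the exon length, and for the summed cell count 0.547 and -0.0301. Over all 213 other long genes it was 0.296 and 0.266 for the EV count and 0.0696 and 0.329 for the cell count, so the contrast between span and exons was seen in the low genes and not in the whole set. Levels per Mb in EVs and cells had a rho of 0.685 in the 87 genes and 0.809 in the 213. Cntnap2 and Ctnna3, at 23.2 and 26.8 CPM per Mb in EVs, lay within the central range of the 63 genes. Over the 221 long genes with enough free span, Cntnap2 ranked 213th from the top in cells and 187th in EVs, Lrp1b 82nd and 91st, and Macrod2 118th and 78th. Genes restricted to other tissues, such as those for pituitary, thyroid or liver proteins, had a median of 28.2 CPM per Mb in EVs. In cells it was 4.09 (25 genes). These medians rest on few reads, as all 27 such genes listed summed to 8.435 to 29.04 CPM per EV library. The filter kept 8 of the 27, and 3 were at 0 in EVs and 3 in cells. They are thus a weak comparison for Cntnap2 and Ctnna3. Cntnap5a, a relative of Cntnap2 with a span of 903 kb, stood at 23.6 CPM per Mb in EVs and 2.64 in cells.

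**Figure D2:**
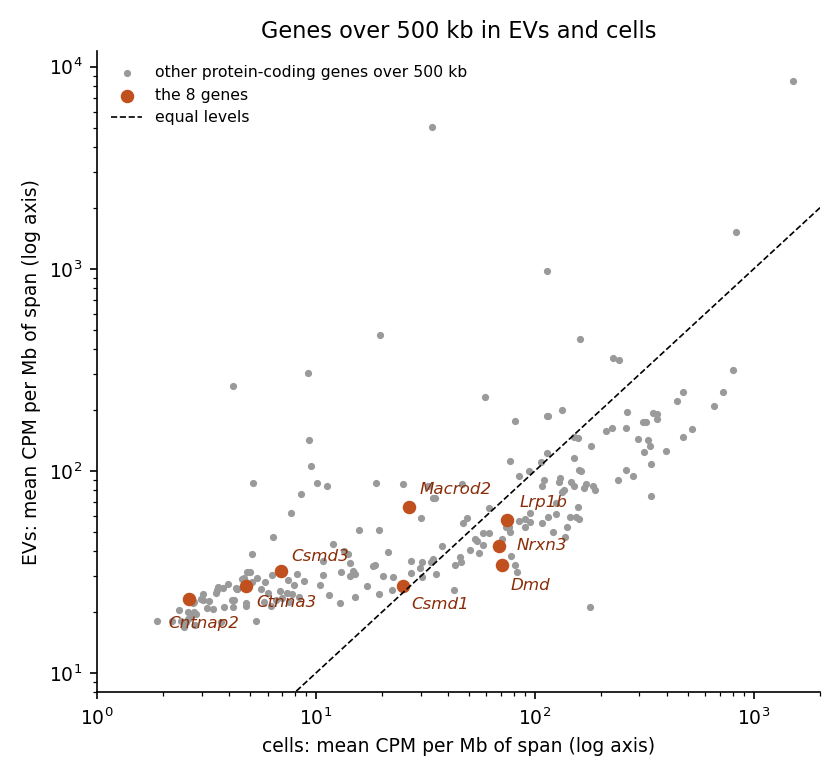
Mean level of 221 protein-coding genes over 500 kb in EVs (vertical) and cells (horizontal), in CPM per Mb of free span on log axes, with the 8 genes named in orange and a dashed line of equal levels. Below about 8 CPM per Mb in cells most genes sit near 23.5 CPM per Mb in EVs, and Cntnap2 and Ctnna3 are among them, whereas Nrxn3, Dmd and Lrp1b lie under the line.

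A few genes placed at over 500 kb by the annotation used here went outside this pattern. Rgs6, a regulator of G protein signalling on chromosome 12, had the largest rise among the others (log2 fold change 7.10 ± 0.43, edgeR adjusted p = 1.73e-17), followed by Egfem1 (4.94 ± 0.34) and Agbl4 (4.01 ± 0.74). Agbl4 had 23 to 16401 counts in EV libraries with a median of 63, so its mean was set by 1 library. Rasgef1b fell by 3.57 on the log2 scale, the cystine transporter gene Slc7a11 fell by 3.07 and the growth factor receptor gene Fgfr2 fell by 2.49. Slc7a11 and Fgfr2 span 0.551 and 2.96 Mb in that annotation, and the spans over which they were counted may be shorter, which was not checked. Rasgef1b had 1 to 16 counts in EVs and stood at 6.21 CPM per Mb there, under every one of the 63 low genes. None of the 8 genes was as far from the other long genes as Rgs6.

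In EVs the 8 genes also moved together from library to library. The median level of the 58 autosomal low genes ranged from 9.69 to 51.5 CPM per Mb over the 18 EV libraries and from 2.54 to 5.58 over the 18 cell libraries. Divided by it, Cntnap2 was between 0.776 and 1.19 in every EV library (median 0.988) and Ctnna3 between 0.997 and 1.88 (median 1.09). The coefficient of variation over EV libraries fell from 56.0% for the level of Cntnap2 to 11.97% for this ratio, from 53.5% to 13.3% for Csmd3 and from 42.8% to 16.7% for Dmd. Pearson's r between a gene and that median over the 18 EV libraries, which share library and depth, was 0.896 to 0.970 for 7 of the genes and 0.650 for Macrod2. In the 18 cell libraries it was 0.0779 for Csmd1, 0.175 for Dmd and 0.221 for Lrp1b. Nrxn3 (0.552), Macrod2 (0.641), Csmd3 (0.726), Cntnap2 (0.835) and Ctnna3 (0.841) were higher there, with Macrod2 near its value in EVs. Over the 28 pairs of members the median r was 0.882 in EVs (0.314 to 0.966) and 0.440 in cells (-0.337 to 0.980).

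**Figure D3:**
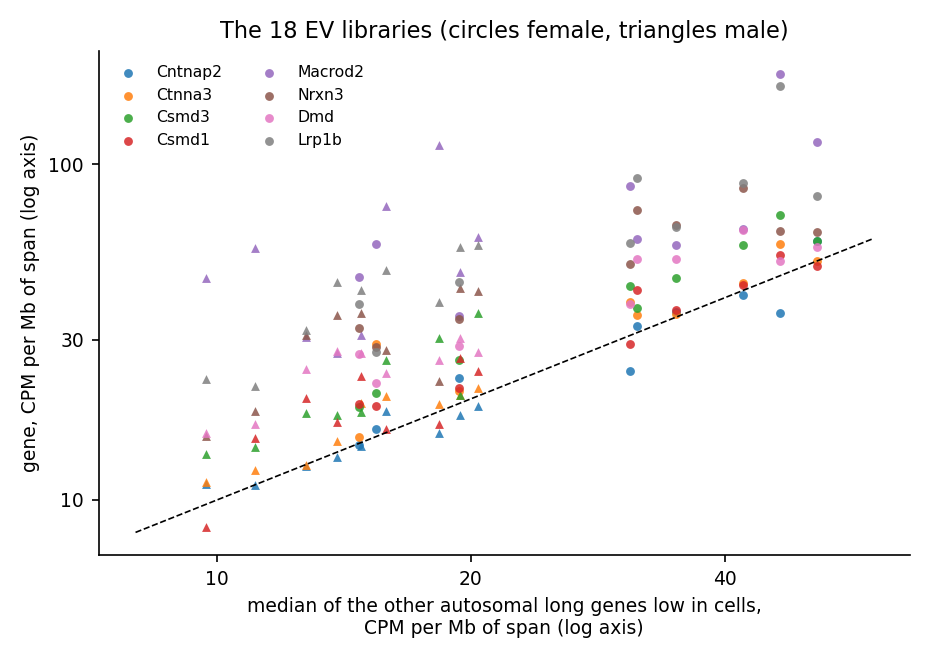
Level of each gene (vertical) against the median level of 58 other autosomal long genes low in cells (horizontal) in the 18 EV libraries, both in CPM per Mb on log axes. Colours are genes, circles female and triangles male cultures, and the dashed line marks equal levels. Cntnap2 stays between 0.776 and 1.19 times the line in every library, and the other genes run above it for the most part.

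Macrod2 was the exception. It made up 6.73% to 15.2% of the counts of the 8 genes in cells (median 11.2%) and 14.4% to 42.7% in EVs (median 23.1%). In the 6 EV libraries under 2 M counts its share was 23.3% to 42.7% (median 28.8%), and in the other 12 it was 14.4% to 33.6% (median 17.2%). Its counts spanned 119 to 380 in the shallow libraries and 196 to 665 in the others. Without the shallow libraries and their cells its log2 fold change between EVs and cells was 0.79 instead of 1.31, and still past the threshold (edgeR adjusted p = 0.000281).

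The low long genes were also split by chromosome, since female cells carry a pair of X chromosomes and male cells a single X. X-linked protein-coding genes over 100 kb and low in cells (25 genes) were set against 360 autosomal ones of the same kind, by medians per Mb in each library. In EVs the ratio of X-linked to autosomal level was 0.854 to 0.952 in the 3 female cultures (mean 0.896 ± 0.050, SD, n = 3 cultures) and 0.616 to 0.720 in the 3 male cultures (0.666 ± 0.052). The ranges did not overlap, and the exact two-sided permutation test over cultures gave p = 0.1, the smallest that 3 against 3 allow. In cells the ratio was 0.750 to 0.874 in females and 0.6247 to 0.799 in males, which overlapped (exact permutation p = 0.3). The female culture had the higher ratio in 3 of 3 pregnancies in EVs (by 0.220 to 0.238) and in cells (by 0.0731 to 0.125). With genes over 500 kb (5 X-linked, 58 autosomal) the EV means were 0.982 ± 0.039 and 0.736 ± 0.102 (exact permutation p = 0.1), and the cell means 0.955 and 0.901 (exact permutation p = 0.7). Dmd itself, much higher in cells than those genes, was 1.06 ± 0.25 higher in female than male EVs on the log2 scale, between Macrod2 (0.80) and Ctnna3 (1.34). How much of the EV counts came from DNA, unspliced RNA or spliced RNA was not tested.

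**Figure D4:**
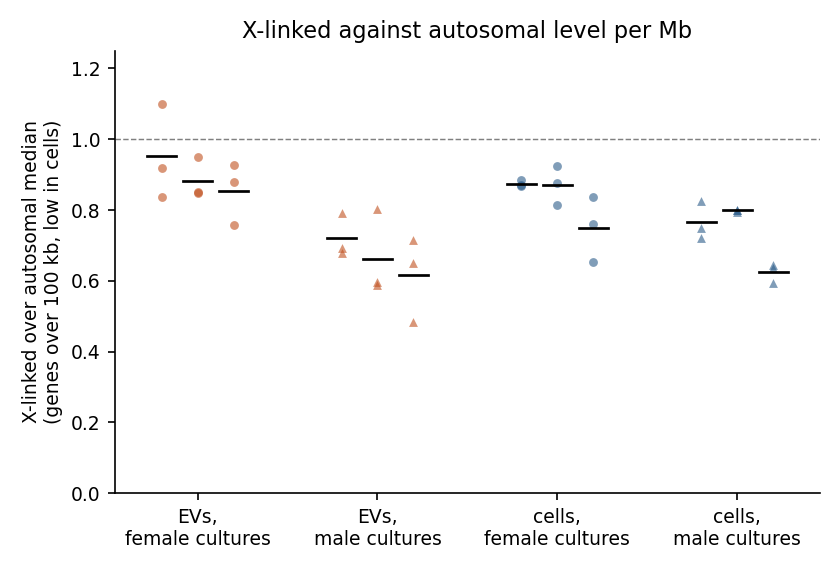
Ratio of the median level of 25 X-linked to that of 360 autosomal protein-coding genes over 100 kb and low in cells, in EV (orange) and cell (blue) libraries of female (circles) and male (triangles) cultures. Each column of points is 1 culture of sets 3, 4 and 5 from left to right with its 3 doses, black lines are culture means, and the dashed line marks equality. Female EV cultures average 0.896 and male EV cultures 0.666.

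An ethanol effect on the 8 genes was not detected. In EVs 0 of 8 passed against control with 120 mg/dL, where 0.00758% of the 13193 genes tested did (edgeR with the culture as a block). The 320 mg/dL libraries also gave 0 of 8, where 0.0758% passed, 0.0152% as higher and 0.0606% as lower. In cells 0 of 8 passed at either dose, as did 0% of 18725 genes. Lrp1b was the 1 member with an unadjusted p under 0.05 in any of the 4 dose comparisons (EVs with 320 mg/dL). Among all genes 784 and 1429 were under that level in EVs, and 476 and 1575 in cells. DESeq2 without a filter also called 0 of the 8 at either dose in EVs and in cells.

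Lrp1b had the largest estimates. In EVs it ranged from 42.8 to 150 CPM without ethanol (median 74.9), from 72.4 to 164 CPM at 120 mg/dL (median 95.0) and from 40.6 to 320 CPM at 320 mg/dL (median 91.9). The groups overlapped, and 5 of 6 cultures were higher than their control at each dose. The log2 fold changes were 0.44 ± 0.23 and 0.51 ± 0.23 (edgeR adjusted p = 0.862 and 0.445), against 0.01 ± 0.15 and 0.06 ± 0.15 in cells. Nrxn3 in EVs was at 24.4 to 104 CPM in controls (median 46.9), 35.5 to 134 at 120 mg/dL (median 60.9) and 29.0 to 115 at 320 mg/dL (median 62.1), with changes of 0.30 ± 0.14 and 0.26 ± 0.14. All 6 cultures were above their control at 320 mg/dL, by 0.0083 to 0.62 on the log2 scale. Csmd1 was likewise above control in 6 of 6 cultures at 320 mg/dL in EVs, with a log2 fold change of 0.36 ± 0.20 (edgeR adjusted p = 0.541). Cntnap2 gave 0.04 ± 0.20 and -0.14 ± 0.20, Ctnna3 0.10 ± 0.20 and 0.05 ± 0.20, and Macrod2 0.04 ± 0.27 and 0.04 ± 0.27 at 120 and 320 mg/dL in EVs.

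In cells the estimates were smaller for the abundant genes. Dmd gave log2 fold changes of -0.05 ± 0.07 and -0.07 ± 0.07, with 89.2 to 254 CPM in controls (median 165), 101 to 217 at 120 mg/dL (median 155) and 97.0 to 218 at 320 mg/dL (median 157). Macrod2 had the estimate with the lowest unadjusted p in cells, 0.21 ± 0.11 at 320 mg/dL (edgeR adjusted p = 0.653). The median level of the low autosomal long genes in EVs was 15.7, 19.9 and 17.1 CPM per Mb at 0, 120 and 320 mg/dL, with ranges that overlapped. For the EV-to-cell ratio 0 of the 8 genes were called at each dose, where 0.00438% and 0% of 22854 genes passed by edgeR. Its log2 estimates ran from -0.22 (Macrod2) to 0.34 (Nrxn3) with SEs of 0.36 to 0.52, so changes of that size in either direction could not be detected in that fit. The fit has no term for the EV-to-cell ratio of each culture, so differences between cultures enter its error. With that term added 0 of the 8 passed as well. At 320 mg/dL 1064 of all genes then had an unadjusted edgeR p under 0.05, against 361 without the term.

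**Figure D5:**
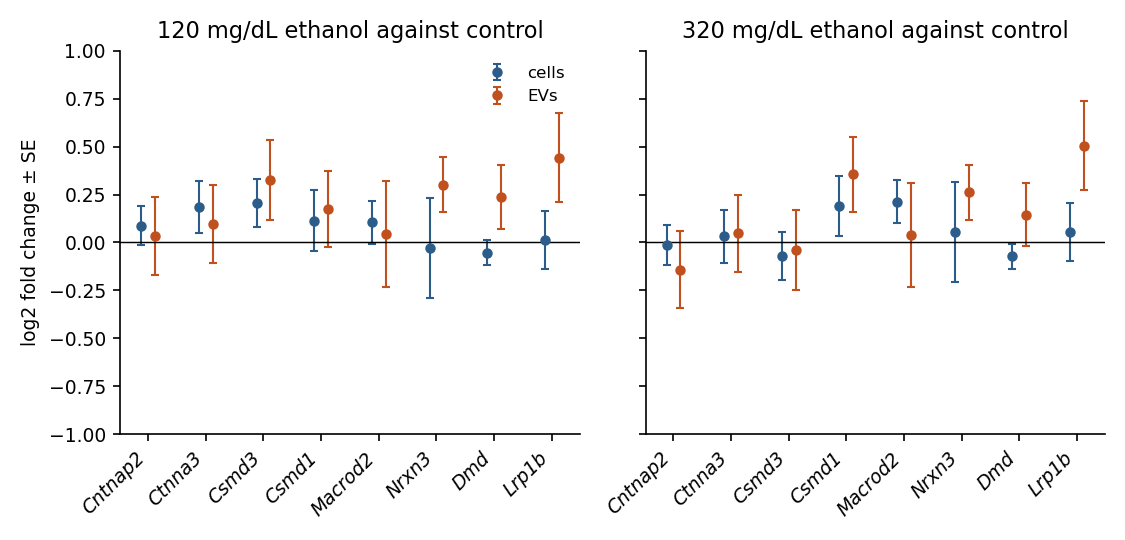
Log2 fold change (± SE) of the 8 genes at 120 mg/dL (left) and 320 mg/dL (right) ethanol against control, in cells (blue) and EVs (orange), fitted by edgeR with the culture as a block over 6 cultures. All estimates lie between -0.14 and 0.51, and 0 passed an adjusted p of 0.05.

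The long genes were higher in female than in male EVs in the fit over libraries, while over cultures 0 genes of any kind passed. In the fit over 18 EV libraries 7 of 8 were higher in females (edgeR, adjusted p under 0.05), where 12% of 12252 genes passed, 7.59% as higher and 4.45% as lower. That fit takes the 3 libraries of a culture as independent, so its p-values are too small. With counts summed over doses (3 female against 3 male cultures) 0 of 8 passed (edgeR, all adjusted p = 0.315 or more), as did 0 of 14847 genes in all. Without set 4 or set 5 the count was 0 as well, where 3.44% and 0.0269% of all genes passed. It was 8 without set 3, where 27.0% passed. It was also 0 without the 6 shallow EV libraries, 4 of which come from female and 2 from male cultures, where 0.267% passed. So the 0s and the 8 come from fits that differed in how many genes of any kind passed. The estimates were alike for all genes. Ctnna3 was at 21.8 to 82.0 CPM in the 9 female libraries (median 50.6) and 15.9 to 30.3 CPM in the 9 male ones (median 27.3), a log2 difference of 1.34 ± 0.29. Cntnap2 (32.7 to 133 against 24.8 to 42.6 CPM) differed by 1.297 ± 0.29 and Lrp1b by 1.08 ± 0.35, the least of the 7 after Dmd at 1.06. Macrod2 (0.80 ± 0.41, edgeR adjusted p = 0.189) did not pass.

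This difference was shared by the other long genes. Of the 63 low in cells, 57 were called higher in female EVs and 0 lower, with a median log2 difference of 1.28 for the 58 autosomal and 1.69 for the 5 X-linked ones. Of the 215 tested over 500 kb, 124 were higher and 0 lower. The level of the autosomal low genes was 16.5 to 43.0 CPM per Mb in the female and 13.04 to 18.6 in the male cultures and overlapped (exact two-sided permutation p = 0.2 over cultures). Within each of the 3 pregnancies the female culture was higher, at 16.5 against 13.04 in set 3, 43.0 against 13.8 in set 4 and 36.2 against 18.6 in set 5, and 3 pairs allow an exact paired p of 0.25 at the smallest. In cells it was 4.13 to 4.95 in the female and 3.18 to 4.07 in the male cultures (exact permutation p = 0.1).

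In cells 2 of 8 genes were higher in females, Cntnap2 (0.52 ± 0.13, edgeR adjusted p = 0.0278) and Ctnna3 (0.52 ± 0.14, edgeR adjusted p = 0.0347), where 5.7% of 18048 genes passed, 3.19% as higher. With counts summed over doses 0 passed (edgeR), where 7 of 20972 genes did, and with the pregnancy as a block 4 did, where 16.5% of 18725 genes did. Estimates for Csmd3 (0.48 ± 0.15), Macrod2 (0.50 ± 0.17) and Nrxn3 (0.48 ± 0.39) were near these and did not pass. Their edgeR adjusted p were 0.07, 0.0875 and 0.504. Lrp1b, Dmd and Csmd1 differed between cultures in a way that did not follow sex. Lrp1b averaged 225, 205 and 190 CPM in the female culture of set 5 and the male cultures of sets 5 and 4, and 89.4, 82.2 and 45.7 CPM in the female cultures of sets 4 and 3 and the male culture of set 3. Dmd divided the 6 cultures the same way, at 229, 191 and 205 CPM in the higher cultures and 95.8 CPM in the lowest, and so did Csmd1, at 57.6, 73.2 and 57.4 CPM against 22.9, 18.8 and 12.8 CPM. For these 3 genes the highest culture mean was 2.39 to 5.70 times the lowest, whereas the means of the doses differed by 1.06 to 1.19 times.

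Across the 18 cell libraries Csmd1 and Lrp1b were each other's close neighbours (Pearson's r = 0.980 on log2 CPM), and both followed Dmd (r = 0.944 and 0.957). The genes nearest to Dmd were the ephrin receptor Epha5 (r = 0.991), the transcription factor Foxp2 (0.986) and Col20a1 (0.984), and those nearest to Csmd1 were Fhit (0.980), Lrp1b and Bcl2l11 (0.975). Lrp1b also lay near Foxp2 (0.976) and the channel gene Trpc1 (0.974). Nrxn3 was nearest to Bicdl2 (0.920), Clstn2 (0.907) and Dcaf10 (0.902), and Macrod2 to Slc24a4 (0.919), Bcorl1 (0.917) and Ppargc1a (0.916). Cntnap2, Ctnna3 and Csmd3 formed a second set (r of 0.769 to 0.792 with one another). Their nearest genes were G630055G22Rik, Mecom and Gabrb1 for Cntnap2 (0.909 to 0.918), 4930556G01Rik, Tenm2 and Npsr1 for Ctnna3 (0.862 to 0.9003) and Gm14164, Vwc2l and Dnah7a for Csmd3 (0.862 to 0.890). The 18 libraries come from 6 cultures, so these values describe the cultures more than 18 separate samples.

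Relatives within a family differed in direction. Of 24 listed, 23 were tested, 10 were higher and 9 lower in EVs (edgeR), with a median log2 fold change of 0.31 beside -0.14 for all genes. Among contactin-associated relatives, Cntnap3 (3.48 ± 0.29), Cntnap5a (3.04 ± 0.18) and Cntnap5c (2.96 ± 0.15) rose beside Cntnap2, at 2.61, 2.64 and 7.72 CPM per Mb in cells. Cntnap4, at 218 CPM per Mb in cells, fell by 2.51 ± 0.16 on the log2 scale. Nrxn2, a neurexin gene shorter than Nrxn3, rose by 0.60 ± 0.14. Of the alpha-catenins, Ctnna1 fell by 1.63 ± 0.12 and the neuronal Ctnna2, with a span of 1098 kb, rose by 1.18 ± 0.18. Utrn, the dystrophin homologue, was at 152 CPM per Mb in EVs and 176 in cells and did not pass (-0.19 ± 0.10, edgeR adjusted p = 0.0774), nor did Csmd2 (0.28 ± 0.28). Vldlr was listed at 0 in every library.

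Of 31 partners, 23 were tested, with 8 higher and 9 lower in EVs by edgeR. The dystroglycan gene Dag1 fell by 2.33 ± 0.12 and the sarcoglycan Sgcb by 2.50 ± 0.12 on the log2 scale, both short and abundant in cells. Sgcd, a sarcoglycan gene of 1093 kb with 2.81 CPM per Mb in cells, rose by 2.50 ± 0.19 to 17.25 CPM per Mb in EVs. The cadherin and catenin partners Cdh2 (fell by 2.39 ± 0.13) and Ctnnd1 (fell by 0.83 ± 0.10) were lower in EVs, and Ctnnb1 did not pass. Nlgn1, a neuroligin gene of 906 kb that was well expressed in cells (295 CPM per Mb), fell by 1.03 ± 0.19. Of the LRRTM ligands of neurexins, Lrrtm1, Lrrtm2 and Lrrtm3 were at 0 in all 36 libraries and have no base free of another counted gene, a position in which other genes such as Kcna2 did have counts, and Lrrtm4 rose by 1.04 ± 0.28. Ethanol changed 0 of the tested relatives and 0 of the tested partners at either dose in EVs or cells (edgeR).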

How the data were processed

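Raw read counts per gene were deposited by the authors as 1 HTSeq file for each of 36 libraries (40205 features). Per the labels and the study's methods the authors depleted ribosomal RNA, deduplicated, trimmed with Trimmomatic, aligned with STAR to mm39 and analysed with DESeq2, and the feature type and strand setting of HTSeq are not given in the sources used here. Both affect how reads in introns and overlapping genes are counted. Genes were placed by symbol on the GENCODE annotation of GRCm39 (31778 features).

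Counts were tested with edgeR 4.0.16 (TMM, quasi-likelihood, filterByExpr with a minimum count of 10 and total of 15, Benjamini-Hochberg below 0.05 over all genes tested) in R 4.3.3: EVs against cells with sex and dose as terms, doses within a location with the culture as a block, the EV-to-cell ratio with the pair as a block, and sex with dose as a term. The EV against cell and sex fits take the 3 doses of a culture as independent, so p-values there are too small. CPM values use TMM library sizes. DESeq2 1.42.0, other scalings, no filter, other blocks, thinning and leaving out each pregnancy were alternatives. Fits were tested on simulated data.

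The rule names 10 genes and lists 8, and the 8 were used. They and all lists were chosen with earlier results of these data known. The rule for named genes took the 8 genes, the listed relatives and partners, the 3 other genes over 500 kb with the largest rise and fall among called genes, and the 3 nearest genes by Pearson's r in cells. Same-culture libraries of different dose deviated together (r over 0.1 in 18 of 18 pairs in cells and 17 of 18 in EVs), so the culture was the block, whereas EVs and their cells did so in 4 of 18 pairs. Total counts per library set the precision, with EV counts of single members as low as 20.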

Additional observations from a re-analysis of the deposited data

Results flagged for a closer look

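Over 48 groups of 6 libraries (8 genes, 2 locations, 3 doses), 2 values stood apart from the rest of their group by Dixon's ratio, which chance does in about 1 in 20 groups. Dmd in EVs at 120 mg/dL was at 143.9 CPM in the female culture of set 5, and the other 5 libraries were at 58.7 to 86.5 CPM. Macrod2 in EVs at 320 mg/dL was at 357.6 CPM in the female culture of set 4, and the other 5 libraries were at 59.7 to 115 CPM. That Macrod2 value comes from a library under 2 M counts. The part of depth in these values was not tested.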

How the results depend on the processing

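The members called between EVs and cells numbered 5 to 7 of 8 under the 11 alternatives, against 6. The dose and ratio counts stayed at 0 of 8 under every alternative run, with and without the replicate block. The sex counts moved. In EVs 7 genes were called, 4 with library totals, 0 with counts summed over doses, 0 without EV libraries under 2 M counts (chosen after seeing the data), 0 to 8 when a pregnancy was left out, and 7 with the pregnancy as a replicate block. In cells 2 genes were called, 0 with library totals, 0 without a filter, 0 with counts summed over doses, 0 to 1 when a pregnancy was left out, and 4 with the pregnancy as a replicate block. The share of all genes called by sex moved too. In EVs it was 0% with counts summed over doses and 28.3% with the pregnancy as a replicate block. In cells it was 16.5% with that block, and 7 of 20972 genes were called with counts summed over doses. The highest EV level per kb was 4.62 times the lowest with merged exons and 8.87 times with the longest transcript. The cause of these moves was not tested. Of the values of single genes, 647 kept their direction and call or missed the threshold both times, 48 lost and 9 gained a call. EV counts of 20 to 50 per member in shallow libraries limit what can be seen.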
